A study of Homo sapiens with 14 samples.

Results

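The proteasome genes described here were the windows of the deposited table whose accession starts with NM_ and whose symbol begins with PSMA to PSMG and a number. There were 45 of them among 28159 windows, 18485 of which had an NM_ accession. PSMC3IP was caught by its name alone: it encodes a meiotic recombination cofactor, and the other 44 encode proteasome subunits or their assembly factors, activators and inhibitor. PSMA3, PSMA6, PSMB3 and PSMD1 carry NR_ accessions in the table and so fell outside the choice. The measurement was ChIP-seq with the 3E8 antibody, which binds the largest subunit of RNA polymerase II when serine 5 of its tail repeat is phosphorylated, a form that gathers near gene starts. The cells were HCT116, an established human colorectal carcinoma line. The study set Nutlin3a against DMSO in cells that had or had not received a stapled, bivalent peptide meant to keep p53 from binding Mediator.

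The ChIP libraries numbered 6. The group with 10 µM Nutlin3a and peptide had 1 library, Nutlin3a without peptide had 2, 0.1% DMSO with peptide had 1, and DMSO without peptide had 2. Peptide was given by electroporation at 10 µM and then kept in the medium at 200 nM, and treatment lasted 3 h. Each of the 4 conditions also had 2 input libraries, sheared chromatin with no immunoprecipitation. Both peptide ChIP libraries are labelled replicate 2. All groups are of 1 cell line, and the labels do not say that replicates were separate cultures, so p-values measure the spread between these libraries, which may be technical.

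The proteasome is the protease that degrades proteins marked with ubiquitin. Its barrel-shaped core is made of alpha subunits (PSMA genes), which gate the entrance, and beta subunits (PSMB genes), of which PSMB5, PSMB6 and PSMB7 cut the substrate. A regulatory particle of ATPases (PSMC genes) and non-ATPase subunits (PSMD genes) binds ubiquitinated proteins, unfolds them and feeds them in. Interferon-treated and immune cells exchange the catalytic subunits for PSMB8, PSMB9 and PSMB10. p53 is itself a proteasome substrate: MDM2 ubiquitinates it, and Nutlin3a blocks their contact so that p53 builds up. PSMD10, also called gankyrin, binds MDM2 and is known to favour p53 degradation.

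Promoters of 4 members are printed to show the ends of the range found below: PSMC5 had the highest ChIP level, PSMD14 the highest ChIP over input, PSMB9 was an immunoproteasome gene and PSMA8 had the lowest ChIP level. Each runs from 250 bases before to 50 bases after the RefSeq start (GRCh38.p14), 5′ to 3′ on the strand of the gene, which was the plus strand for these 4. They lie at chr17:63827181-63827480 for PSMC5, chr2:161308175-161308474 for PSMD14, chr6:32853942-32854241 for PSMB9 and chr18:26133619-26133918 for PSMA8. Capitals mark every match on either strand to 5 motifs: CCGGAAG (ETS family), CCAAT (the CCAAT box), TGACNNNGC (core of the element bound by NFE2L1, the activator of proteasome genes, and NFE2L2), GCATGCGC (part of the NRF1 site) and TTCNNNGAA (STAT).
PSMC5: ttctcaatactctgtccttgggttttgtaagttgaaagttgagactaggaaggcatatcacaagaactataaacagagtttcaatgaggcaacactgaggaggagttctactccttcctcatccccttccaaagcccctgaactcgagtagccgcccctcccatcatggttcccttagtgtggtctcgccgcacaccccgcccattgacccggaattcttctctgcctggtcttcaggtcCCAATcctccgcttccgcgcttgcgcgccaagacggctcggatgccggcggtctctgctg
PSMD14: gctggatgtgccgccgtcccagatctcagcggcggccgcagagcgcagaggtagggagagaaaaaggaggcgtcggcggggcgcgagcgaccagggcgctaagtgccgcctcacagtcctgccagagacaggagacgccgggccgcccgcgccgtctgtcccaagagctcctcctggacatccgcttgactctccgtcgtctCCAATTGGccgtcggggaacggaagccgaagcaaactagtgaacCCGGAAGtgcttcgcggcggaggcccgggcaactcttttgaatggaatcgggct
PSMB9: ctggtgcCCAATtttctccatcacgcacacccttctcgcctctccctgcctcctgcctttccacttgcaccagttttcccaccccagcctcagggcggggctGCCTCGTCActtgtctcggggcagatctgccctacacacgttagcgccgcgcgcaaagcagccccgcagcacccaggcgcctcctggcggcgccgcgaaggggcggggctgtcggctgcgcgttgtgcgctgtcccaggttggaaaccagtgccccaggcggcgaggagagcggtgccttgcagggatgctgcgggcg
PSMA8: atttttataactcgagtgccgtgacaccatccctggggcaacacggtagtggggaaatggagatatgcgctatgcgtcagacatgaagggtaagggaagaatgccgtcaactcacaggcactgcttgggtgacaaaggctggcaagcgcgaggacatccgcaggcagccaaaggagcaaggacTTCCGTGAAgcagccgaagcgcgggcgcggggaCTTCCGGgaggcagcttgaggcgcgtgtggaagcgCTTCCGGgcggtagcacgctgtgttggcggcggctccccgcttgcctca
A RefSeq promoter lay in the window of 38 of the 45 members (84.4%). CCGGAAG was found in 15 of the 38 (39.5%), against 10.7% of 27305 RefSeq promoters of the same length. TGACNNNGC was found in 10 (26.3%, against 13.6% of all promoters) and CCAAT in 17 (44.7%, against 35.7%). TTCNNNGAA was in 6 (15.8%, against 7.9%) and GCATGCGC in 2 (5.3%, against 3.3%), and matches of different motifs did not overlap in any member. In the printed set, PSMD14 holds CCGGAAG across its RefSeq start and the CCAAT box on both strands. PSMC5 holds CCAAT, PSMB9 holds TGACNNNGC and CCAAT, and PSMA8, though lowest in ChIP level, holds CCGGAAG at 2 places. Members with CCGGAAG had a median ChIP level of 70.6 CPM, and members without it 69.9 CPM. For TGACNNNGC the medians were 78.7 CPM with and 68.4 CPM without the motif. A motif match is a description of the letters, not evidence of a bound site. The median GC content of members' promoters was 62.3%, against 58.3% for all promoters, and across the 38 members it showed little relation to the ChIP level (Pearson 0.115, Spearman 0.125, from the same libraries).

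Total counts in the windows ran from 1290223 to 2240951 in ChIP libraries and from 161719 to 359276 in inputs, so an input value rests on fewer reads. Proteasome windows held 0.274 to 0.287% of the counts of a ChIP library and 0.192 to 0.227% of an input. The colon epithelium markers summed to 1144 to 1575 CPM in ChIP libraries and 335 to 559 CPM in inputs. The blood cell markers summed to 27.3 to 70.3 CPM in ChIP libraries and 21.1 to 93.9 CPM in inputs. ChIP exceeded 2 times input at 5 of the 10 colon epithelium markers and 1 of the 6 blood cell markers. Replicate 1 of Nutlin3a without peptide stood apart. Its median over 18 windows of genes taken as silent in colon was 11.4 CPM. The other 5 ChIP libraries lay between 5.29 and 8.32 CPM. The authors' scaling constant for this replicate of Nutlin3a was 1.82, against 0.595 to 0.748. Values without this library stand beside most results on Nutlin3a below. The 1000 bp windows were not turned to the strand of the gene: at their usual placement they held 300 bp before and 700 bp after the start of plus-strand genes (18 members), and 700 bp before and 300 bp after the start of minus-strand genes (12 members). Median ChIP levels over NM_ genes at these placements were 34.2 CPM for plus-strand and 34.6 CPM for minus-strand genes, and over members 70.0 CPM for plus-strand and 86.9 CPM for minus-strand genes.

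Most proteasome genes had a Ser5-phosphorylated polymerase level above that of the median gene. Levels are CPM, read counts in 1 window of fixed length brought to a common library size by TMM scaling and averaged over the 6 ChIP libraries. The members' levels had a median of 67.0 CPM and ran from 7.56 to 153 CPM, against a median of 30.1 CPM over NM_ windows. In all, 39 of 45 lay above that NM_ median, 23 above the NM_ upper quartile, and the median member lay above 75.6% of NM_ windows. In the inputs the medians were 46.3 CPM for members and 33.7 CPM for NM_ windows, so members lay above NM_ windows in unselected chromatin too. In pooled cells, fewer cells with polymerase at a gene and less polymerase per cell cannot be told apart.

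PSMC5, an ATPase of the regulatory particle, was highest, at 146 CPM in the Nutlin3a library with peptide, 174 and 145 CPM in Nutlin3a, 124 CPM in DMSO with peptide and 180.3 and 149.6 CPM in DMSO. The 8 inputs ran from 53.3 to 88.3 CPM there, below every ChIP library. Next came PSMG3 (148 ± 20.5 CPM), which encodes a chaperone of core assembly, and PSME3 (136 ± 19.2 CPM), which encodes a nuclear activator that opens the core without ubiquitin. PSMG1, for another core assembly chaperone, averaged 132 ± 13.4 CPM, and PSMC3IP 126 ± 12.5 CPM (SD, n = 6 ChIP libraries for each). These 5 neighbours in the order overlap in their libraries, so their ranks are not separated by the spread.

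The 5 lowest levels were at PSMA8, PSMB11, PSMB8, PSMD10 and PSMB9. PSMA8, the alpha subunit of the testis, averaged 7.56 ± 1.45 CPM, with 8 to 19 counts in each ChIP library. PSMB11, the beta subunit of the thymus, averaged 9.47 ± 3.03 CPM. Both lie near the level of the silent windows given above. PSMB8 averaged 20.6 ± 2.60 CPM, PSMD10 25.8 ± 8.19 CPM and PSMB9 26.8 ± 6.53 CPM (SD, n = 6 ChIP libraries for each).

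**Figure D1:**
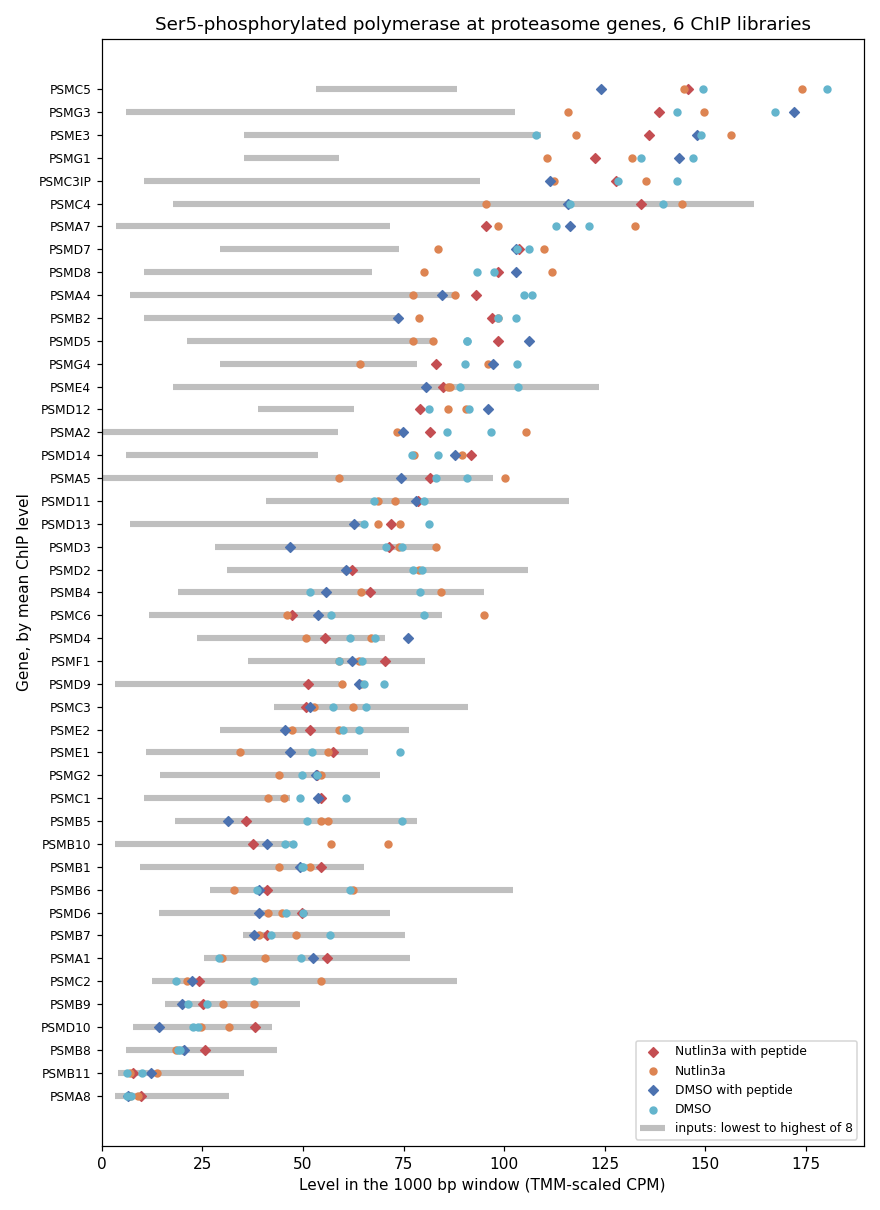
Level of each of the 45 members in TMM-scaled CPM (x axis, linear) in each ChIP library (symbols by condition) with the range of the 8 inputs as a grey bar; genes run from the highest mean ChIP level down. PSMC5, PSMG3 and PSMG1 have every ChIP library to the right of the grey bar, and PSMA8 and PSMB11 lie at the low end inside it.

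Of the 45 windows, 14 (31.1%) overlapped the window of another gene, as did 22.0% of all windows, and reads there count for both genes. The pairs were PSMC5 with FTSJ3, PSMG3 with PSMG3-AS1, PSMA7 with SS18L1, PSMD5 with CUTALP, PSMA2 with MRPL32, PSMD13 with SIRT3, PSMF1 with LOC105372493, PSMD9 with HPD, PSME2 with RNF31, PSMG2 with CEP76, PSMA1 with PDE3B, PSMB9 with TAP1, PSMD10 with ATG4A and PSMB8 with PSMB8-AS1. The values of these 14 are uncertain to that degree, and no strand of the reads is stated.

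The comparison of ChIP with input asks where antibody-selected chromatin exceeded unselected chromatin. By edgeR's quasi-likelihood test over all 14 libraries, 22 of the 45 members (48.9%) were higher in ChIP at a Benjamini-Hochberg adjusted p under 0.05, and 0 were lower. Over all 21504 windows tested the shares were 25.1% higher and 15.5% lower, and over NM_ windows 27.6% higher and 13.5% lower. At an unadjusted p under 0.05, 25 members were higher and 0 lower, beside 6189 higher and 4657 lower of the 21504 windows. The members' median log2 fold change was 0.75, against -0.04 over all windows and 0.11 over NM_ windows, and 37 of 45 were positive. The count higher was 15 with DESeq2 (17.8% of all windows), 17 with DESeq2's size factors in edgeR (19.6%) and 23 with limma-voom (26.9%). With each of them 0 members were lower, beside 23.2%, 21.3% and 22.2% of all windows in the same order. With library sizes left as total counts, which moves the median of all windows to -0.33, 15 members were higher and 1 lower, beside 16.7% higher and 25.3% lower over all windows. Restricted to windows with a mean count of at least 50, where the median of all windows is 0.00 by its own scaling, 25 members were tested, of which 1 was higher and 2 were lower, beside 14% higher and 10.2% lower over all windows kept, and their median was 0.12. ChIP libraries hold more reads than inputs, so windows reached this limit mainly through ChIP, and the scaling was then set on those windows. These counts therefore do not test the calls above. At this limit PSMD14 was at 0.93 (adjusted p = 0.025 by edgeR's quasi-likelihood test). PSMG4, PSME4, PSMD12, PSMA5 and PSMD13 turned negative without passing the threshold, so they are not the 2 called lower.

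PSMD14, the subunit that strips ubiquitin from substrates at the regulatory particle, stood highest over its input. It had 91.9 CPM in Nutlin3a with peptide, 89.6 and 77.6 CPM in Nutlin3a, 87.7 CPM in DMSO with peptide and 83.5 and 77.2 CPM in DMSO, while the inputs ran from 5.88 to 53.6 CPM. ChIP and input libraries did not overlap, and the log2 fold change was 1.87 ± 0.29 (SE), or 3.66-fold, with an adjusted p of 7.11e-06 by edgeR's quasi-likelihood test. Non-overlap of all 6 ChIP and all 8 input libraries was found for 10 members: PSMC5, PSMG3, PSMG1, PSMC3IP, PSMA7, PSMD7, PSMD8, PSMD12, PSMA2 and PSMD14. It was found for 14.2% of NM_ windows.

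Among the constitutive alpha subunits, 4 of 5 were higher in ChIP: PSMA7 (1.71), PSMA2 (1.61), PSMA4 (1.29) and PSMA5 (0.86), all log2 fold changes. PSMA1 was at 0.09. PSMA2 rests partly on 1 input library with a count of 0, which allows up to 10.2 CPM (3 counts, counting error alone): its log2 fold change was 3.34 without replicate 2 of the DMSO inputs without peptide, whose partner is that library, and 1.29 without the partner. PSMA5 likewise had 2.66 and 0.54, and the call was lost in the second case (adjusted p = 0.105, edgeR's quasi-likelihood test). Both input libraries belong to the same condition.

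Among the constitutive beta subunits 1 of 6 was higher in ChIP. That was PSMB2 (1.54 ± 0.27), a structural, non-catalytic subunit with 97.0 CPM in Nutlin3a with peptide, 98.4 and 78.9 CPM in Nutlin3a, 73.6 CPM in DMSO with peptide and 103 and 98.5 CPM in DMSO. PSMB1, at 0.65 ± 0.30, missed the threshold (adjusted p = 0.0788, edgeR's quasi-likelihood test), and PSMB4 was at 0.25 ± 0.25. The catalytic genes PSMB5, PSMB6 and PSMB7 had log2 fold changes of 0.10 (95% interval -0.48 to 0.67), -0.25 (-0.86 to 0.36) and -0.22 (-0.77 to 0.32). Their mean ChIP levels of 50.6, 46.0 and 44.2 CPM sat within the range of their inputs, and the sign at PSMB5 was negative with total counts (-0.20), with DESeq2's size factors (-0.10) and with DESeq2 itself (-0.10).

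Of the immunoproteasome genes 0 of 3 passed the test, and at PSMB8 and PSMB9 all ChIP libraries lay within the range of the inputs. PSMB8 was at -0.10 (95% interval -0.96 to 0.76), PSMB9 at -0.37 (-1.05 to 0.31) and PSMB10 at 0.76 (0.08 to 1.44, adjusted p = 0.0660 by edgeR's quasi-likelihood test). PSMB10 passed without replicate 2 of the DMSO inputs with peptide (1.35, adjusted p = 0.00672 by the same test), with limma-voom (0.88, adjusted p = 0.0307) and with no filter on low counts (0.83, adjusted p = 0.0401 by edgeR's test). Among the 3 immunoproteasome genes PSMB10 had the highest level, 49.9 CPM on average and close to that of the catalytic genes it and its relatives replace. PSMB11 and PSMA8 were below their inputs without passing the test, at -1.02 (-2.09 to 0.06) and -0.91 (-2.15 to 0.33). Their ChIP libraries reached at most 13.7 and 9.75 CPM, and their inputs up to 35.2 and 31.7 CPM. These genes and PSMB8 passed the count filter of this fit through input libraries alone. The filter thus favoured values below input, which do not show a level below input.

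**Figure D2:**
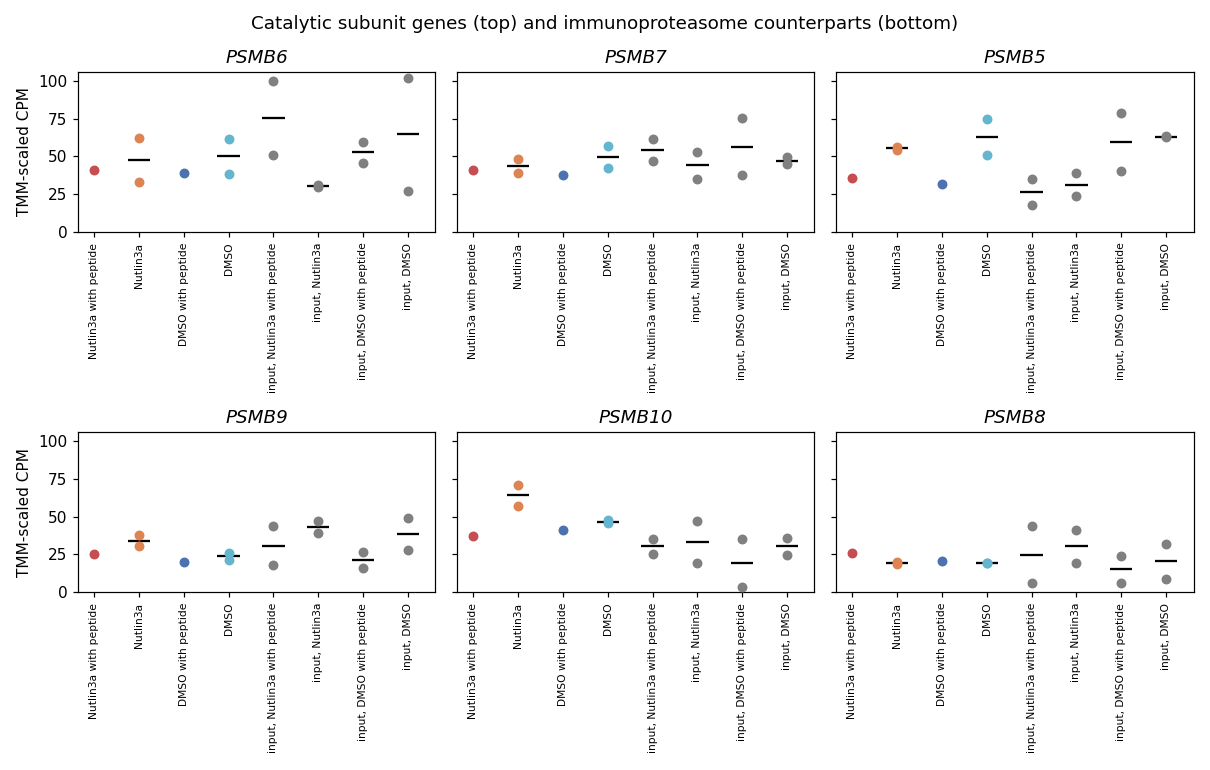
Level in TMM-scaled CPM (y axis, linear, the same in all panels) of the catalytic subunit genes PSMB6, PSMB7 and PSMB5 (top) and their immunoproteasome counterparts PSMB9, PSMB10 and PSMB8 (bottom) in each library; points are libraries, bars are means of groups with 2 libraries. ChIP points (coloured) share the range of the inputs (grey) at PSMB6, PSMB7, PSMB5, PSMB9 and PSMB8, and at PSMB10 the 2 Nutlin3a libraries without peptide, 71.2 and 57.0 CPM, and replicate 2 of DMSO without peptide, 47.5 CPM, are above all 8 inputs, the highest of which is 47.1 CPM.

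In the regulatory particle, 4 of 6 ATPase genes were higher in ChIP: PSMC4 (1.35), PSMC6 (1.22), PSMC5 (1.11) and PSMC1 (0.87). PSMC2 was at 0.02 and PSMC3 at -0.14. Of the 10 non-ATPase genes 5 were higher, PSMD14 as above, PSMD8 (1.19), PSMD7 (1.07), which encodes the partner of PSMD14, PSMD13 (0.85) and PSMD12 (0.75), and the other 5 had positive log2 fold changes of 0.23 and above that did not pass. Chaperones that assemble this particle were higher in 2 of 3 cases, PSMD9 (1.08) and PSMD5 (0.95), with PSMD10 at -0.17. PSMD9 was at 1.84 without replicate 2 of the DMSO inputs with peptide. Of the activators, PSME3 (1.28) and PSME4 (0.88) were higher, while PSME1 (0.53) and PSME2 (0.03), the interferon-inducible pair, did not pass. The inhibitor gene PSMF1 was at 0.23. Of the core assembly chaperones 3 of 4 were higher, PSMG3 (1.58), PSMG1 (1.51) and PSMG4 (0.77), and PSMG2 at 0.67 missed the threshold (adjusted p = 0.0665, edgeR's quasi-likelihood test). PSMC3IP was higher too (1.26).

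Of the 22 members higher in ChIP, 15 kept the call whichever of the 14 libraries was left out. The other 7 lost it without at least 1 library. PSMA5 lost it in 11 of the 14 cases (highest adjusted p = 0.165), followed in highest adjusted p by PSMD13 (0.0966), PSMC1 (0.0859), PSMG4 (0.079), PSMD9 (0.0612), PSMD12 (0.0606) and PSME4 (0.0603), all by edgeR's quasi-likelihood test. Replicate 1 of DMSO without peptide, a ChIP library, was the one whose loss ended the call at all 7. Calls of this set were kept in full only without replicate 2 of the DMSO inputs without peptide and without replicate 1 of the DMSO inputs with peptide.

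**Figure D3:**
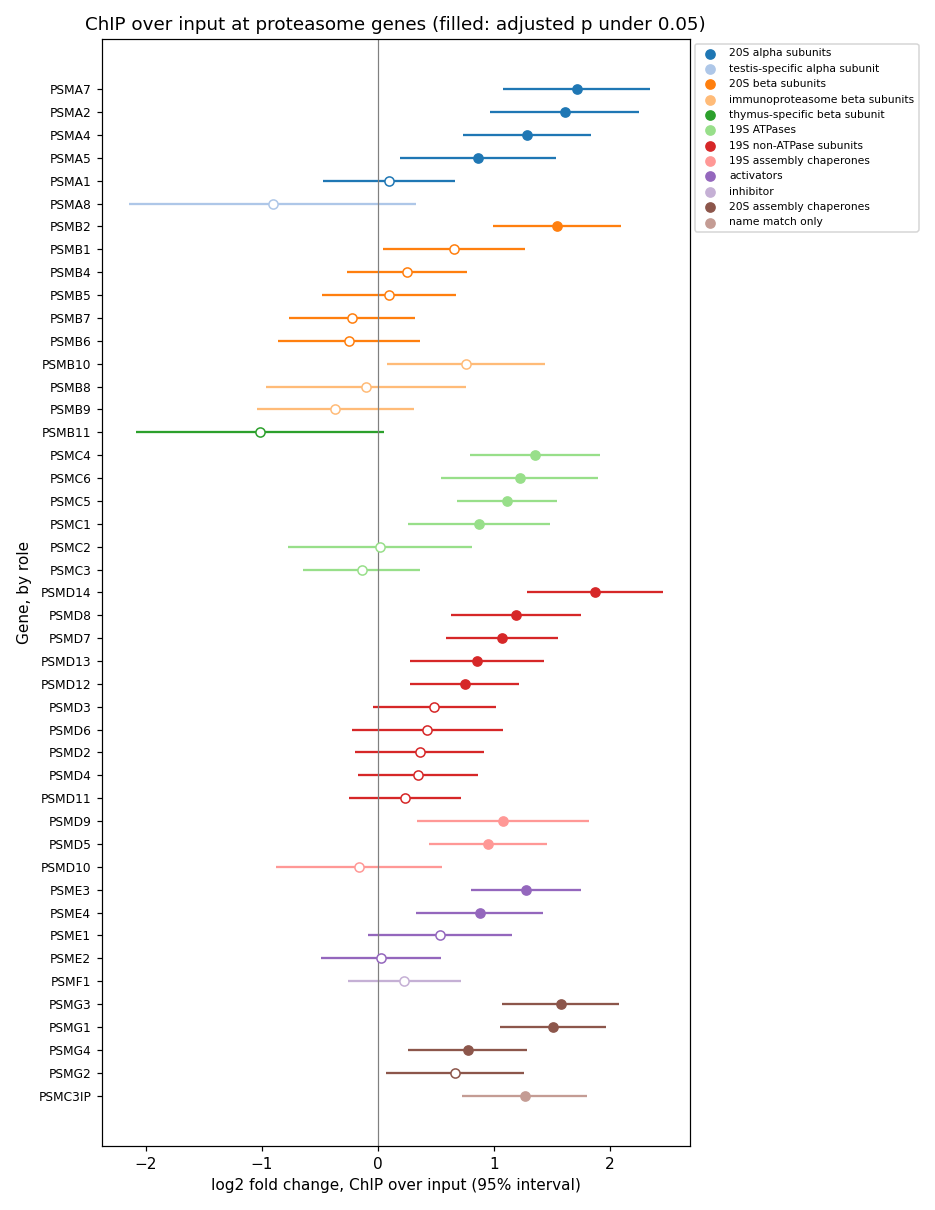
Fitted log2 fold change of ChIP over input (x axis) for the 45 members with 95% intervals, grouped and coloured by role; filled circles passed an adjusted p under 0.05. Alpha subunits, ATPases and core assembly chaperones are mostly filled and to the right of 0, while 1 of 6 constitutive beta subunits and 0 of 3 immunoproteasome subunits are filled.

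The 4 genes with NR_ accessions were split in the same comparison. PSMA3 (mean ChIP level 86.8 CPM, log2 fold change 1.35) and PSMA6 (80.5 CPM, 0.83) were higher than input, and PSMD1 (56.9 CPM, 0.17) and PSMB3 (55.2 CPM, -0.15) did not pass.

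Nutlin3a was set against DMSO without peptide to see how the drug moved polymerase in the absence of the block. No proteasome gene passed the test: 0 of 45 were higher and 0 lower, beside 0.00772% of 25901 windows higher (2 windows) and 0 lower. At an unadjusted p under 0.05 there were also 0 members, against 2.32% of all windows, and DESeq2 and limma-voom called 0 members as well. With the replicate number in the fit 0 members were called too, beside 0.151% of all windows higher and 0% lower. The median log2 fold change of members was -0.09, with 14 of 45 positive, against 0.04 over all windows and -0.02 over NM_ windows; it was -0.01 with total counts, 0.04 in the 39 members with a mean count of at least 50, and 0.44 with the authors' constants, which move the median of all windows to 0.53. The median 95% interval of a member reached 0.51 to either side.

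PSMB10 and PSMB9 were the positive members with the smallest p. PSMB10 had 71.2 and 57.0 CPM in Nutlin3a libraries and 45.6 and 47.5 CPM in DMSO libraries. Both Nutlin3a libraries were above both DMSO libraries, and the fitted log2 fold change was 0.46 ± 0.27 (SE; 95% interval -0.10 to 1.02; adjusted p = 0.982, edgeR's quasi-likelihood test). Without replicate 1 of Nutlin3a, the library that stands apart, it was 0.30, and within replicate 2 alone 0.27.

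PSMB9 had 37.8 and 30.2 CPM in Nutlin3a and 26.2 and 21.4 CPM in DMSO. These did not overlap either, and the change was 0.52 ± 0.35 (-0.23 to 1.26), or 0.35 without replicate 1 of Nutlin3a and 0.48 within replicate 2. PSMB9 shares its start region with TAP1, which encodes a peptide transporter of antigen presentation and was at 0.55 ± 0.29 in reads partly the same. PSMB8, of the same gene cluster, was at 0.02 ± 0.40, from 20.2 and 18.5 CPM in Nutlin3a and a mean of 19.2 ± 0.35 CPM in DMSO (SD, n = 2). Without replicate 1 of Nutlin3a PSMB8 was at -0.05. The catalytic genes they replace were at -0.17 ± 0.27 (PSMB5), -0.09 ± 0.33 (PSMB6) and -0.18 ± 0.29 (PSMB7). Without replicate 1 of Nutlin3a these were -0.15, -0.60 and -0.33, and without replicate 1 of DMSO all 3 were positive, at 0.13, 0.30 and 0.06. Within replicate 1 the ratios were -0.44, 0.02 and -0.22, and within replicate 2 0.15, -0.21 and -0.10, so the replicates had opposite signs at PSMB5 and PSMB6. With the authors' constants the 3 genes were at 0.30, 0.52 and 0.35.

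PSMC2 had 54.5 and 21.3 CPM in Nutlin3a and 37.8 and 18.4 CPM in DMSO (0.41 ± 0.44). Its ratio was 0.52 within replicate 1 and 0.21 within replicate 2. The fitted change was -0.40 without replicate 1 of Nutlin3a, 1.03 without replicate 1 of DMSO and -0.0023 without replicate 2 of DMSO. On the negative side PSMA4 had 77.3 and 87.9 CPM in Nutlin3a and 107 and 105 CPM in DMSO, without overlap (-0.35 ± 0.21, -0.26 without replicate 1 of Nutlin3a, and 0.13 with the authors' constants). PSMC1 had 41.3 and 45.3 CPM in Nutlin3a and 60.7 and 49.3 CPM in DMSO, also without overlap (-0.33 ± 0.27, -0.27 without replicate 1 of Nutlin3a, -0.11 within replicate 2, and 0.13 with the authors' constants). PSME1 had 34.3 and 56.3 CPM in Nutlin3a and 74.0 and 52.2 CPM in DMSO. Its change was -0.46 ± 0.29, with -1.08 within replicate 1 and 0.11 within replicate 2, and it was -0.16 without replicate 1 of Nutlin3a.

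Counted over libraries, both Nutlin3a libraries lay above both DMSO libraries at 3 members, PSMB10, PSMB9 and PSMD10 (6.67%, against 15.9% of all windows). They lay below at 9 members (20%, against 16.3% of all windows): PSMA4, PSMB2, PSMC1, PSMD5, PSMD6, PSMD9, PSME2, PSME4 and PSMG1. The replicates did not order the members alike: 9 were positive in both, 16 negative in both and 20 of opposite sign. The ratios of both replicates correlated at Pearson -0.017 over members, and weakly over all 25901 windows too, at 0.178. The medians were -0.07 in replicate 1 and -0.01 in replicate 2.

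**Figure D4:**
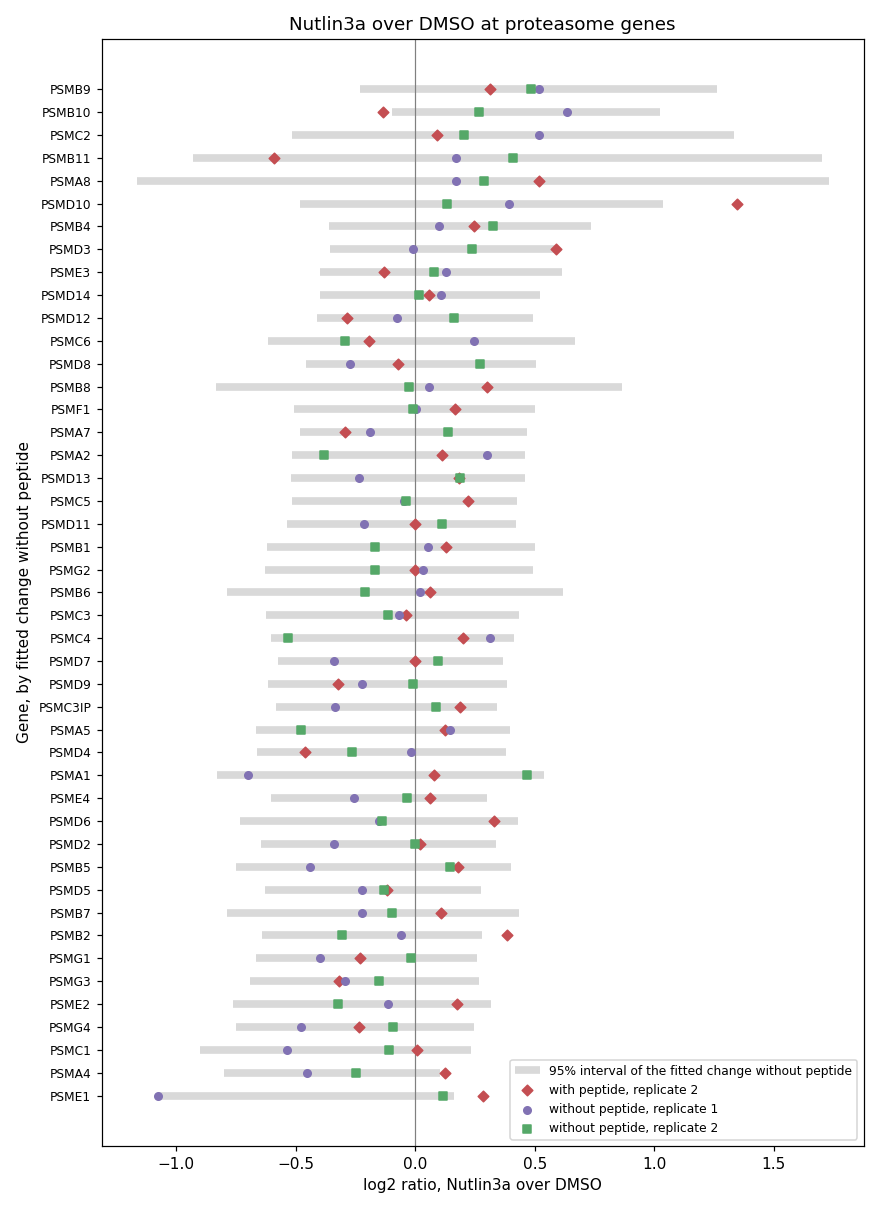
Log2 ratio of Nutlin3a over DMSO (x axis) at each member: diamonds with peptide (replicate 2), circles and squares without peptide in replicates 1 and 2, and grey bars for the 95% interval of the fitted change without peptide. Every grey bar covers 0, circles and squares fall on opposite sides of 0 at 20 genes, and PSMD10 with peptide is farthest right at 1.35.

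With peptide, Nutlin3a and DMSO had 1 library each, so their ratio was not tested by itself. The median log2 ratio of members was 0.08, with 28 of 45 positive. PSMD10 had the highest ratio, 1.35, from 38.0 CPM (74 counts) in Nutlin3a with peptide and 14.1 CPM (22 counts) in DMSO with peptide. Its ratio within replicate 2 without peptide was 0.13, from 24.7 CPM in Nutlin3a and 22.6 CPM in DMSO. The PSMD10 window overlaps that of ATG4A, so these reads may belong to either gene.

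Whether the response to Nutlin3a differed with the peptide was tested as the difference between both log2 fold changes. For 0 of 45 members did it pass, as for 0% of all windows, and 0 members had an unadjusted p under 0.05, against 1.05% of all windows; DESeq2 and limma-voom called 0 members too. The median difference was 0.15, with 31 of 45 positive, against -0.01 over all windows, and the median interval reached 0.87 to either side. The positive members with the smallest p were PSMD10 (1.14, 95% interval -0.19 to 2.47), PSMB2 (0.57, -0.22 to 1.37) and PSME1 (0.75, -0.31 to 1.81). The negative ones were PSMB10 (-0.60, -1.59 to 0.38), PSMB11 (-1.05, -3.28 to 1.19) and PSMD12 (-0.33, -1.11 to 0.44). For the catalytic genes PSMB5, PSMB6 and PSMB7 the differences were 0.36, 0.15 and 0.29, with intervals that cover 0. Without replicate 1 of Nutlin3a the difference was 1.32 at PSMD10, 0.73 at PSMB2, 0.44 at PSME1, -0.44 at PSMB10, -1.44 at PSMB11 and -0.37 at PSMD12, and 0.33, 0.66 and 0.44 at PSMB5, PSMB6 and PSMB7. Without replicate 2 of Nutlin3a it was 1.15 at PSME1, -0.48 at PSMB11 and -0.27 at PSMB6, and without replicate 2 of DMSO -1.45 at PSMB11. PSMB5 was at 0.06 and PSMB7 at 0.06 without replicate 1 of DMSO. The peptide libraries are of replicate 2 and the groups without peptide hold both replicates, so these differences mix peptide with replicate. Within replicate 2 the Nutlin3a ratios with and without peptide were 0.28 and 0.11 at PSME1 and 0.18 and 0.15 at PSMB5. At PSMB2 they were 0.38 and -0.31.

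The peptide was also set against no peptide within each treatment. The peptide groups hold 1 library each, and that library was assumed to vary like the pairs. Both peptide libraries are of replicate 2, while the groups without peptide hold replicates 1 and 2. The fitted values of these comparisons therefore mix peptide with replicate, and ratios within replicate 2 do not. Under DMSO 0 of 45 members passed, as for 0% of all windows, with edgeR, DESeq2 and limma-voom. At an unadjusted p under 0.05, 0 members were higher and 2 lower, beside 1.52% of all windows in either direction. These were PSMB5 and PSMD3.

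PSMB5, which carries the chymotrypsin-like activity that proteasome inhibitors target, had 31.4 CPM in DMSO with peptide and 74.6 and 51.0 CPM in DMSO without it. Its log2 fold change was -0.99 ± 0.36 (unadjusted p = 0.0132, adjusted p = 1, edgeR's quasi-likelihood test), and -0.67 within replicate 2. PSMD3, a lid subunit of the regulatory particle, had 46.7 CPM with peptide and 74.6 and 70.6 CPM without it, at -0.62 ± 0.29 (unadjusted p = 0.0465, adjusted p = 1, same test), and -0.57 within replicate 2. In both genes the peptide library was below both others. Other members had this order too, such as PSMD2 (60.8 CPM with peptide, 77.4 and 79.5 CPM without). PSMB2 followed at -0.44 ± 0.27, and the positive members with the smallest p were PSMA1 (0.43 ± 0.38; 0.11 without replicate 2 of DMSO and 0.86 without replicate 1), PSMD5 (0.24 ± 0.25) and PSMD4 (0.24 ± 0.29). The median over members was -0.17, with 16 of 45 positive (35.6%), and -0.05 within replicate 2. Over all windows the median was -0.02 with 47.6% positive, and over NM_ windows -0.02 with 48.1% positive. Within replicate 2 the median of all windows was 0.00.

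Under Nutlin3a 0 of 45 members passed, again as for 0% of all windows and with all 3 tools, and 1 was lower at an unadjusted p under 0.05, beside 2.44% of all windows. That member was PSMB10, with 37.5 CPM in Nutlin3a with peptide and 71.2 and 57.0 CPM in Nutlin3a without it. The log2 fold change was -0.77 ± 0.33 (unadjusted p = 0.0331, adjusted p = 1.00, edgeR's quasi-likelihood test), and -0.60 within replicate 2. This comparison and that of Nutlin3a with DMSO share the Nutlin3a libraries without peptide, so the PSMB10 values of both are not independent.

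PSMB5 had 35.9 CPM in Nutlin3a with peptide and 54.5 and 56.3 CPM without it, at -0.63 ± 0.35, and -0.64 within replicate 2. At PSMB5 the single peptide library was below both libraries without peptide in either treatment. The same order held at PSMD3, PSMD9, PSMC3, PSME4, PSMB9 and PSMB10, so it was not particular to PSMB5. The share of all windows with this order was not counted. PSMC6 (-0.56 ± 0.38) was at 0.03 within replicate 2. The positive members with the smallest p were PSMA1 (0.65 ± 0.38), PSMD5 (0.30 ± 0.26; -0.015 with the authors' constants) and PSMD10 (0.43 ± 0.42), which were at 0.45, 0.24 and 0.60 without replicate 1 of Nutlin3a. The median over members was 0.01, with 24 of 45 positive (53.3%). Over all windows it was -0.02 with 47.7% positive, and over NM_ windows 0.02 with 51.8% positive.

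A comparison that the treatments did not plan, replicate 1 against replicate 2 over the 4 ChIP libraries without peptide with treatment in the fit, was added after the values were seen. Here 3 of 45 members (6.67%) were higher in replicate 1 and 0 were lower, beside 3.42% of 21612 windows higher and 0.68% lower. Over NM_ windows 2.42% were higher and 0.559% lower. At an unadjusted p under 0.05, 5 members were higher and 1 lower, beside 2042 higher and 1194 lower of the 21612 windows. PSMC2 had 54.5 CPM (Nutlin3a) and 37.8 CPM (DMSO) in replicate 1, and 21.3 and 18.4 CPM in replicate 2. The log2 fold change was 1.22 ± 0.29 (adjusted p = 0.00481, edgeR's quasi-likelihood test), and both treatments moved the same way.

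PSMC6 had 94.9 (Nutlin3a) and 80.2 CPM (DMSO) in replicate 1, and 46.0 and 57.0 CPM in replicate 2, at 0.77 ± 0.22 (adjusted p = 0.0211, same edgeR test). PSMB6 had 62.4 (Nutlin3a) and 61.8 CPM (DMSO) in replicate 1, and 32.9 and 38.6 CPM in replicate 2, at 0.81 ± 0.24 (adjusted p = 0.0351, same edgeR test; 0.0575 with all 6 ChIP libraries in the fit). The peptide libraries, both of replicate 2, had 22.4 to 24.1 CPM at PSMC2, 47.2 to 53.8 CPM at PSMC6 and 39.0 to 41.1 CPM at PSMB6, on the side of replicate 2 each time. Among inputs, PSMC2 had 12.6 to 88.2 CPM in replicate 1 and 13.4 to 29.4 CPM in replicate 2, and PSMC6 11.7 to 84.5 CPM in replicate 1 and 17.9 to 25.3 CPM in replicate 2, so the ranges overlapped. At PSMB6 the input of replicate 1 was above that of replicate 2 in each of the 4 conditions, with 31.1 to 102 CPM in replicate 1 and 26.8 to 50.7 CPM in replicate 2. What the numbers stand for is not given in the labels, and its part in the result was not tested. Across the 38 members with a promoter, the log2 fold change between replicates went with promoter GC content at Pearson -0.334 and Spearman -0.259, both from the same 4 libraries.

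**Figure D5:**
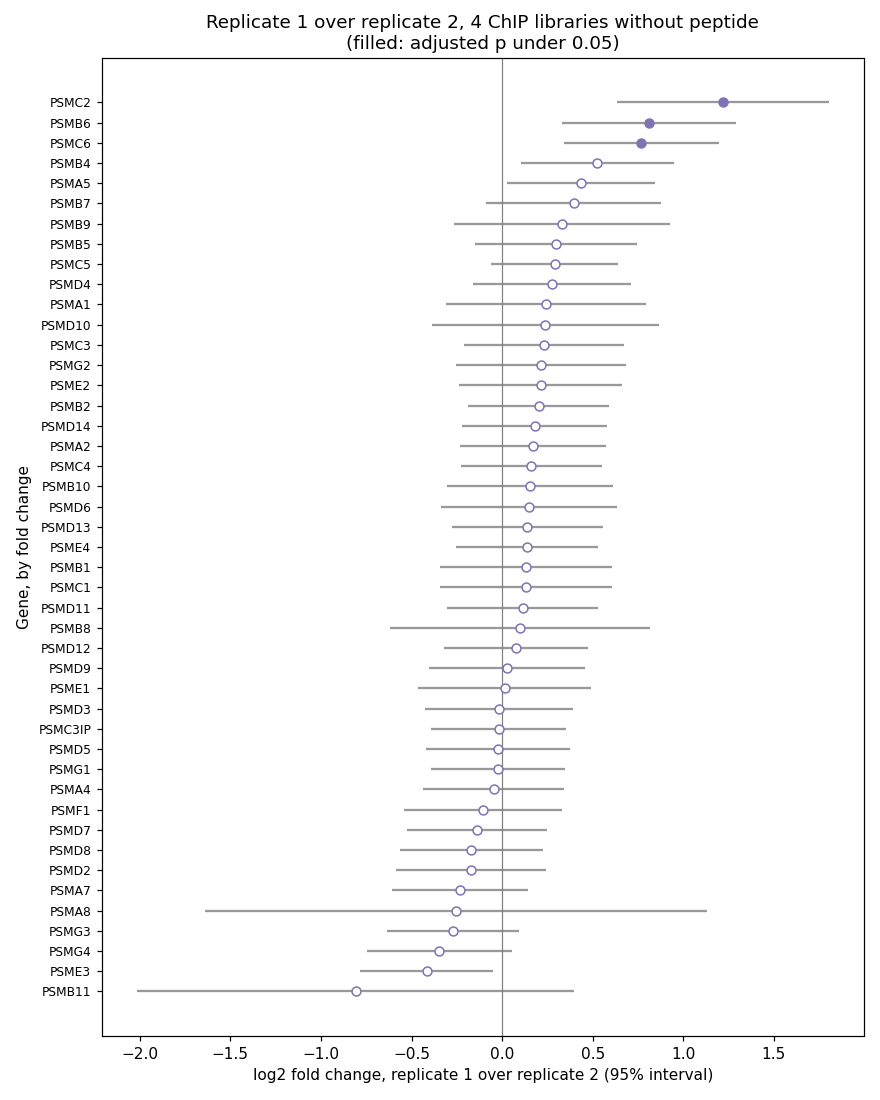
Fitted log2 fold change of replicate 1 over replicate 2 (x axis) in the 4 ChIP libraries without peptide, with 95% intervals, for the 45 members; filled circles passed an adjusted p under 0.05. PSMC2, PSMB6 and PSMC6 are filled at the top, and the wide interval at the bottom belongs to PSMB11, with 8 to 20 counts in these libraries.

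Other genes of the pathway were read from a list of 26 that make, regulate or serve the proteasome, 24 of which were in the table. In ChIP against input, 19 of 23 tested were higher and 0 lower, beside 25.1% higher and 15.5% lower over all windows, with a median log2 fold change of 1.33, against -0.04 over all windows. POMP, whose product matures the core, was at 1.77. NFE2L1, which encodes the activator of proteasome genes, was at 1.52. In Nutlin3a against DMSO without peptide 0 of 24 passed, with 0 at an unadjusted p under 0.05, 4 positive and a median of -0.15, beside 0.00772% of all windows. The difference with and without peptide, and the peptide under each treatment, also gave 0 calls in this list.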

How the data were processed

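Ser5-phosphorylated RNA polymerase II ChIP-seq (6 libraries) and input (8 libraries) of HCT116 cells were analysed. Per the file headers, the authors deposited raw read counts in 1 window of 1000 bp per gene start, and for ChIP libraries a scaled signal, which equals the counts times 1 constant per library. The submitters' processing notes name hg38; the aligner and the counting tool are not given in the sources used here. Groups follow the labels' treatments. Counts were tested with edgeR 4.0.16 (R 4.3.3, quasi-likelihood, TMM, filterByExpr with a minimum count of 10): one fit of the 6 ChIP libraries (25901 windows, 2 residual degrees of freedom) and one of all 14 libraries (21504 windows), in which each condition had equal weight. All 45 members passed both filters, but PSMA8, PSMB11 and PSMB8 passed that of the 14 libraries through inputs alone. P-values were adjusted by Benjamini-Hochberg over all windows. Errors are SE of log2 fold changes, and intervals are 95%. Levels are CPM by TMM factors of 14 libraries (0.839 to 1.11). Ratios within a replicate used a prior count of 2 and had no test. DESeq2 1.42.0, limma-voom (limma 3.58.1), other scalings, filters and left-out libraries were alternatives, and the scripts were tested on simulated data. Same-numbered Nutlin3a and DMSO libraries deviated together (Pearson 0.454), but 2 pairs do not establish pairing, so the replicate number stayed out of the main fits. The spread in those fits therefore includes differences between replicates. Promoters and gene positions are from RefSeq GRCh38.p14, matched by symbol. Named genes were the catalytic and immunoproteasome genes, the 5 highest and 5 lowest levels, and every member that overlaps another window. Also named, per main comparison, was every member past the threshold or else, per direction, the 3 of lowest p. Members called only in an alternative were not all named. The members and gene lists were chosen with earlier results of these data known.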

Additional observations from a re-analysis of the deposited data

How the results depend on the processing

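Counts of members past the threshold in the 4 treatment comparisons stayed at 0 in each direction under every alternative run. With the replicate block, fitted for each, they were also 0. For Nutlin3a against DMSO the median was then -0.09, and 0.151% of all windows were higher and 0% lower. In ChIP against input 22 members were higher and 0 lower with the block, beside 24.7% higher and 14.5% lower over all windows. For ChIP against input, the count higher was 15 to 24 and the count lower 0 when 1 library was left out. Over all windows these fits called 19.5 to 27% higher and 10.4 to 16.7% lower. With total counts 1 was lower (25.3% of all windows). With a mean count of at least 50 there were 1 higher (14%) and 2 lower (10.2%). In replicate 1 alone 2 were higher (5.14%), in replicate 2 alone 26 higher (26.3%) and 1 lower (21.9%), and in DMSO without peptide alone 5 higher (8.55%). The last 3 use fewer libraries, and the cause of the others was not tested. At a mean count of at least 50 members shifted by like amounts. The values went from 1.11 to 0.17 at PSMC5, from 1.58 to 0.63 at PSMG3 and from 1.87 to 0.93 at PSMD14. Sign changes at that limit, listed next, came with this shared shift. With total counts PSMG4 went from 0.77 to 0.48 and PSMB5 from 0.10 to -0.20. The single members that turned sign in ChIP against input were PSMG4 (-0.17), PSME4 (-0.063), PSMD12 (-0.20), PSMA5 (-0.075) and PSMD13 (-0.088) at a mean count of at least 50, PSMB5 with total counts (-0.20), DESeq2's size factors (-0.10), DESeq2 (-0.10) and DMSO alone (-0.011), PSMB8 with limma-voom (0.012), PSMB6 in replicate 2 alone (0.030), PSMB9 in replicate 1 alone (0.22) and PSMB7 in DMSO alone (0.061). Leaving out 1 library gave -0.076 to 0.24 at PSMB5, -0.45 to 0.037 at PSMB6 and -0.32 to 0.40 at PSMB8. In Nutlin3a against DMSO, the authors' constants gave 0.13 at PSMA4 and PSMC1, 0.30 at PSMB5, 0.52 at PSMB6 and 0.35 at PSMB7, a mean count of at least 50 gave 0.076 at PSMB6, replicate 2 alone gave 0.11 at PSME1, 0.15 at PSMB5 and -0.025 at PSMB8, and replicate 1 alone gave 0.020 at PSMB6. With 1 library left out, PSMC2 was at -0.40 to 1.03, PSMB5 at -0.41 to 0.13, PSMB6 at -0.60 to 0.33, PSMB7 at -0.36 to 0.056 and PSMB8 at -0.046 to 0.089. For the difference with and without peptide, PSMB6 was at -0.051 with the authors' constants, -0.030 at a mean count of at least 50 and -0.27 to 0.66 with 1 library left out. For the peptide under Nutlin3a, PSMD5 was at -0.015 with the authors' constants, and PSMC6 at 0.029 in replicate 2 alone and at -1.02 to 0.024 with 1 library left out. A comparison that uses the lone library of a peptide group could not be fitted without it; the other comparisons were. Inputs hold few reads (0 to 6 counts at the lowest member of each), which limits ChIP against input most at low windows.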
